A study of Mus musculus with 10 samples.

Results

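Protein synthesis in the cytosol was followed through 79 genes out of the 12637 in the deposited table. They are the genes of the translation initiation factors, the translation elongation factors and the cytosolic aminoacyl-tRNA synthetases. The rule goes by name alone and holds no measured value, but it was set with earlier results of these data known. It takes symbols that begin with Eif or Eef and a digit, without the eIF2 kinase genes. It also takes the 20 synthetase symbols from Aars to Yars. Of the 79 members 55 are factor genes, 20 are synthetase genes and 4 are factor pseudogenes, and all 79 passed the filter on low values.

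Translation starts when the kinase-regulated factor eIF2 brings initiator tRNA to the small ribosomal subunit, where eIF1, eIF1A, eIF3 and eIF5 help it find the start codon. The eIF4 factors bind the mRNA cap and unwind the leader. Elongation factors then deliver aminoacyl-tRNAs and move the ribosome, and each tRNA has been charged before by a synthetase specific for its amino acid. A resting naive T cell makes little protein, and signals through the T cell receptor and CD28 raise protein synthesis before the cell grows and divides.

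RNA was sequenced from naive splenic CD8+ T cells, sorted as CD62Lhi CD44lo/-, of 6-week-old female C57Bl/6 mice. The mice were Ikaros-Zn4-/-, whose Ikaros, a transcription factor of lymphocytes, lacks zinc finger 4, a DNA-binding finger, or WT. The labels name no other allele and no promoter or Cre line. Cells were lysed unstimulated (0 min) or after 30 or 120 min on plate-bound anti-CD3 and anti-CD28. Each genotype had 2 libraries at 0 min, 2 libraries at 30 min and 1 library at 120 min. Whether libraries of a group come from separate mice is not said in the labels, so the p-values cover the spread between these libraries alone, which may be technical, and the fit assumes that the 1 library per genotype at 120 min varies as the rest do.

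Levels are given as scaled RPKM, that is, the deposited read counts per gene length and library depth (RPKM), divided by 1 factor per library (0.879 to 1.13) that sets the median ratio over 8498 commonly expressed genes. The factor matters because the median of all genes on the deposited scale moved by -0.32 log2 at 120 min against 0 min, and by -0.09 after scaling. Log2 changes refer to scaled RPKM + 1 and understate the change of genes with low levels. Each change was tested with limma across 12203 genes, and a member is called when its Benjamini-Hochberg adjusted p over all these genes is below 0.05. Recovered depth was 4.50 to 13.3 M reads per library, and the second library of each group was the shallower at 0 and 30 min. Ikzf1 itself read 192 to 251 scaled RPKM in the 5 Ikaros-Zn4-/- libraries, against 132 to 169 in the 5 WT libraries, which does not check the deletion because the row covers the whole gene.

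All 8 CD8 T cell marker genes were measured, and their summed level was 3264 to 4043 scaled RPKM at 0 min, 2660 to 3657 at 30 min and 1500 to 1732 at 120 min. Of other cell types, 4 of 7 myeloid markers summed to 27.6 to 31.2 scaled RPKM at 0 min, 49.2 to 96.5 at 30 min and 32.2 to 62.2 at 120 min. Of the B cell markers 2 of 7 were measured, and they moved in opposite directions. Cd79a read 0.135 to 0.275 scaled RPKM at 0 min, 0.501 to 1.03 at 30 min and 4.25 to 7.13 at 120 min, while Cd79b read 5.62 to 13.8 at 0 min, 3.70 to 7.45 at 30 min and 1.99 to 5.52 at 120 min. From the lists of CD4 T cells and natural killer cells 1 gene of 4 each was in the table. Ctla4 read 2.45 to 13.2 scaled RPKM at 0 min, 27.97 to 35.4 at 30 min and 6.04 to 15.8 at 120 min. Gzma read 2.39 to 8.85 in Ikaros-Zn4-/- libraries and 0 to 0.208 in WT libraries. The other markers of these lists, and all 6 of erythroid cells and platelets, have no row in the table, which holds only genes that average at least 1 RPKM in some group. The part that such markers play in the changes of the members was not tested, and in bulk RNA fewer cells of a type and less RNA per cell cannot be told apart.

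The levels of the members spanned more than 3 orders of magnitude. Elongation factors led: Eef2, the translocase that moves the ribosome along the mRNA, averaged 1724 scaled RPKM over the 10 libraries, Eef1a1, which delivers aminoacyl-tRNA, 1226, and Eef1b2, a subunit of its nucleotide exchange factor, 376. Subunits of eIF3, the scaffold of the initiating small subunit, followed with Eif3k at 245 and Eif3h at 214. Among synthetases Kars, for lysine, was highest at 54.2 and Cars, for cysteine, lowest at 6.88. The lowest members of all were Eif4ebp3 at 1.25 and Eif3j1 at 0.882. Reads of near-identical copies can be split in counting, which makes the values of Eif4a1, Eif1a and Eif1ax, Eif2s3x, Eif3j1 and Eif3j2 and of the genes with pseudogene copies (Eif1, Eif3e, Eif5a) uncertain. The kit does not mark strand, and 19 members share exon sequence with a gene on the other strand (Aars, Cars, Eef1b2, Eef2k, Eif1ad, Eif1b, Eif2a, Eif2b4, Eif2d, Eif3d, Eif3j1, Eif3m, Eif4a2, Eif5b, Eif6, Farsb, Hars, Mars and Yars), so those reads cannot be told apart either.

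**Figure D1:**
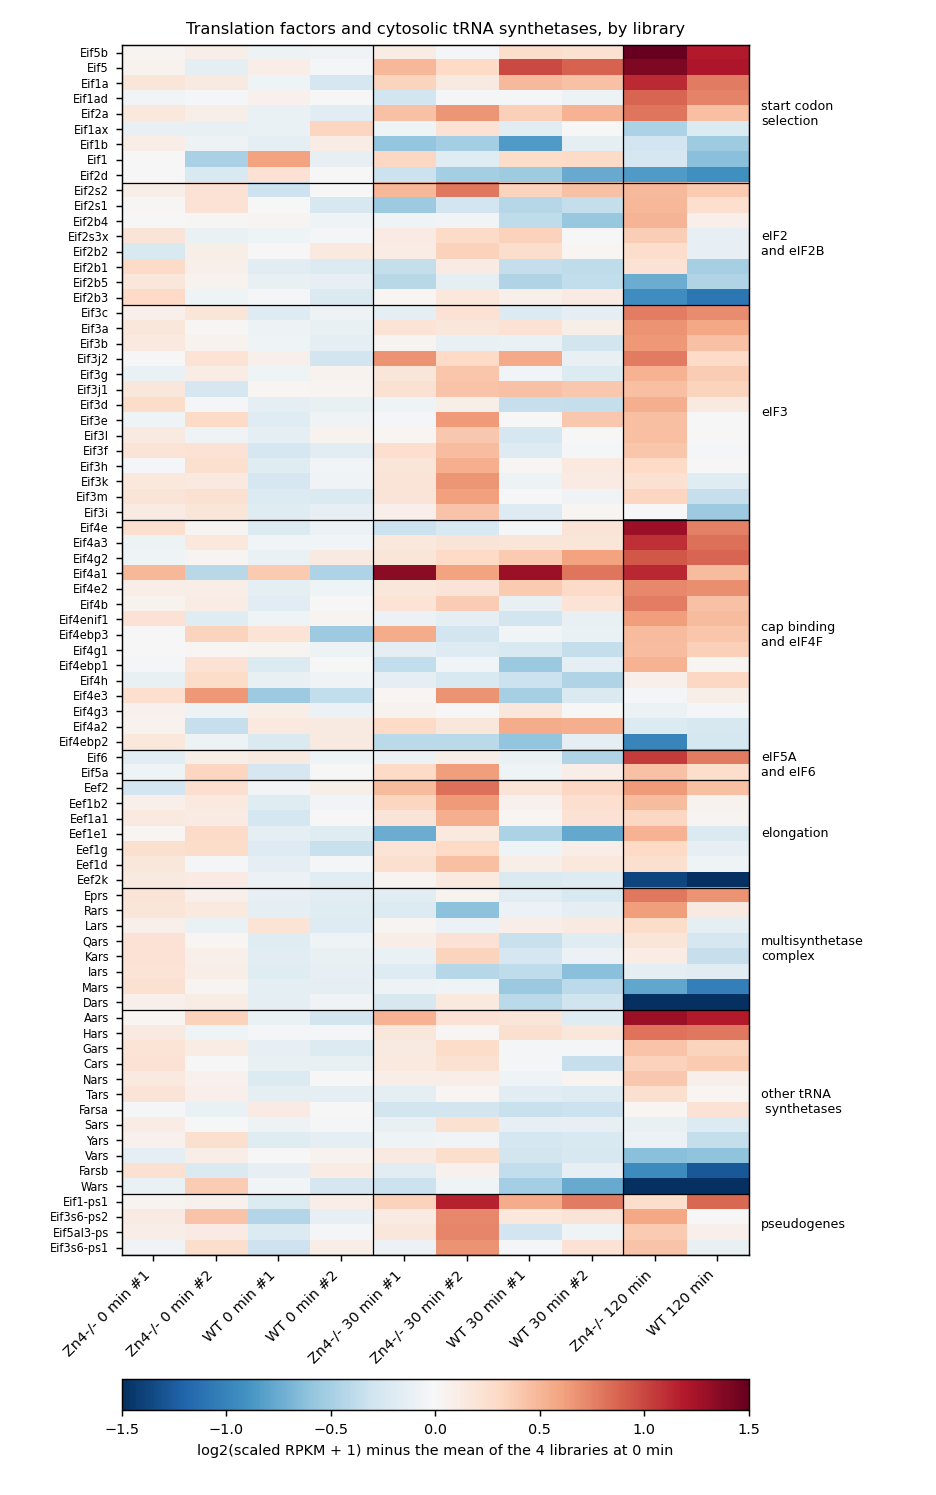
Colour shows log2(scaled RPKM + 1) of each of the 79 members in each of the 10 libraries minus the mean of the 4 libraries at 0 min, with members in rows by role and libraries in columns by time, Ikaros-Zn4-/- left of WT. Changes beyond the ends of the colour scale take its end colours. Most of the strongest colours stand in the 2 columns at 120 min, with Eif5b, Eif5, Aars and Eif4e high and Dars, Wars and Eef2k low in both genotypes.

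After 120 min of stimulation the members split. Compared with 0 min, 28 of 79 rose and 10 fell, where 59.3% of all genes tested were called, 26.5% higher and 32.8% lower. Their median change was 0.22 log2, against -0.09 over all genes tested, and single members ran between -1.84 (Dars) and 1.34 (Eif5b). The split depends on the scale. With RPKM as deposited 14 rose and 19 fell, with quantile normalization 21 rose and 17 fell. In a fit of each genotype alone 21 rose and 10 fell in Ikaros-Zn4-/- cells, and 17 rose and 8 fell in WT cells. Of the 38 members called, 22 kept the call under each alternative setting and left-out library that kept them in the fit (20, and 19 for Eif2b3), and these are named as such below. The shares of all genes given here stand behind the counts of each role as well. Roles of the factors were set by symbol, so that Eif4a3 counts with the cap genes, Eif1ad with start codon selection and Eef1e1 with elongation.

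**Figure D2:**
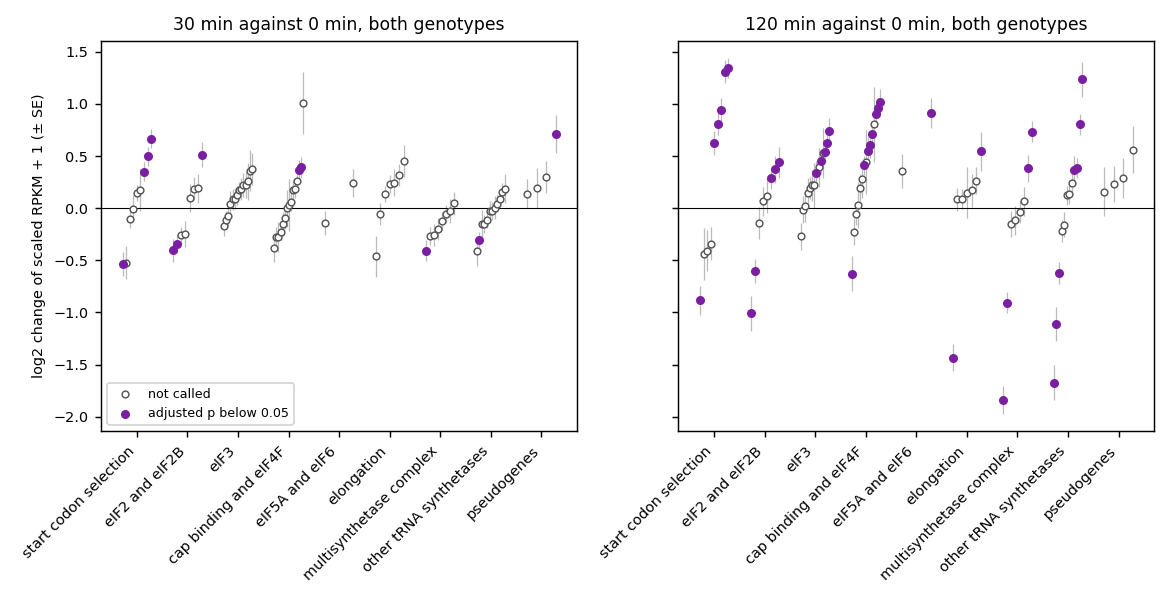
Each point is 1 member's log2 change of scaled RPKM + 1, with its standard error, at 30 min (left) and 120 min (right) against 0 min over both genotypes, grouped by role; filled points have an adjusted p below 0.05. At 120 min 5 of 9 genes of start codon selection and 12 of 15 genes around the cap lie above 0, and synthetases spread from -1.84 to 1.24.

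Among the genes for start codon selection 5 of 9 rose and 1 fell at 120 min, with a median of 0.63 log2 (4 rose and 4 fell on the deposited scale, and 5 rose and 3 fell with quantile normalization). Eif5b, the GTPase that joins the ribosomal subunits (chromosome 1, 37998010 to 38055579, GRCm38 with GENCODE M21 annotation, as for all gene positions here), read 13.996 and 14.6 scaled RPKM at 0 min, 14.8 and 13.5 at 30 min and 40.5 at 120 min in Ikaros-Zn4-/- cells. In WT cells it read 12.9 and 13.1 at 0 min, 16.5 and 16.1 at 30 min and 32.2 at 120 min. Both 120 min libraries thus lay above all 8 others, and the change was 1.34 ± 0.09 log2 (SE; limma adjusted p = 5.96e-05), called under each setting.

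Eif5, which makes eIF2 hydrolyse its GTP at the start codon (chromosome 12, 111538016 to 111546752), had the highest mean of these factors over the 10 libraries, at 76.6 scaled RPKM against 75.97 for Eif1, and rose in steps. In each library at 0 min Eif1 was above it. Its level was 51.1 and 44.8 scaled RPKM at 0 min, 69.8 and 60.8 at 30 min and 132 at 120 min in Ikaros-Zn4-/- cells. The WT libraries had 53.0 and 48.4 at 0 min, 99.0 and 91.6 at 30 min and 115 at 120 min. All libraries at a later time were above all at the time before, within each genotype and across both. The change at 120 min against 0 min was 1.31 ± 0.11 log2 (limma adjusted p = 0.000106), called under each setting, and at 30 min against 0 min 0.67 ± 0.09 (adjusted p = 0.00574). Eif5 was the most stable call at 30 min, lost only in a fit of Ikaros-Zn4-/- libraries alone.

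The paralogs of eIF1A and eIF1, which hold the small subunit open for scanning and guard start codon choice, are given side by side, and differences between their changes were not tested. Eif1a read 21.7 scaled RPKM in Ikaros-Zn4-/- and 17.0 in WT cells at 120 min, against 10.9 and 10.6 in Ikaros-Zn4-/- and 9.02 and 7.83 in WT cells at 0 min. The rise of 0.94 ± 0.11 log2 (limma adjusted p = 0.000363) was called under each setting. Its X-linked copy Eif1ax read 3.59 in Ikaros-Zn4-/- and 4.58 in WT cells at 120 min against 4.94 and 4.92 in Ikaros-Zn4-/- and 4.999 and 6.98 in WT cells at 0 min, -0.34 log2 and not called (adjusted p = 0.103). Eif1, at 62.3 in Ikaros-Zn4-/- and 48.0 in WT cells at 120 min against 74.6 and 52.9 in Ikaros-Zn4-/- and 114 and 68.0 in WT cells at 0 min, changed by -0.44 log2 (adjusted p = 0.169), and its libraries at 0 min differed among themselves more than this. For Eif1b the change was -0.41 log2 (adjusted p = 0.115). On the deposited scale Eif1, Eif1b and Eif1ax were all called lower, with changes of -0.72, -0.69 and -0.58 log2.

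Of the remaining genes in this group Eif1ad, an eIF1A domain protein, rose by 0.81 log2 under each setting. Eif2a, an alternative initiator tRNA carrier, rose by 0.63 and lost its call on the deposited scale alone. Eif2d, which can load initiator tRNA without eIF2 (chromosome 1, 131153181 to 131187658), fell. It read 8.15 and 6.73 scaled RPKM at 0 min, 6.25 and 5.41 at 30 min and 4.04 at 120 min in Ikaros-Zn4-/- cells. WT cells had 9.59 and 8.09 at 0 min, 5.25 and 4.38 at 30 min and 3.81 at 120 min. The 2 libraries at 120 min were below all others, and the level fell by 0.88 ± 0.14 log2 (limma adjusted p between 0.000135 and 0.0204 over 20 settings), called under each setting.

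The genes of eIF2 and of its exchange factor eIF2B, which reloads eIF2 with GTP, had 3 of 8 that rose and 2 that fell at 120 min, where 26.5% of all genes tested rose and 32.8% fell. With quantile normalization 1 rose and 2 fell. Eif2s2, the beta subunit of eIF2, was the strongest riser. Its level at 120 min was 4.83 scaled RPKM in Ikaros-Zn4-/- and 4.44 in WT cells, against 3.42 and 3.81 in Ikaros-Zn4-/- and 2.35 and 3.17 in WT cells at 0 min. The change was 0.44 ± 0.15 log2 (limma adjusted p = 0.0390). Eif2s1, the alpha subunit that the stress kinases phosphorylate, rose by 0.37 log2, and Eif2b4 by 0.29. None of these 3 calls held on the deposited scale, where no gene of the group rose and the group's median was -0.14 log2. When single libraries were left out, the call of Eif2s2 was lost on leaving out any 1 library except both Ikaros-Zn4-/- libraries at 30 min and the second WT library at 0 min (adjusted p up to 0.217). That of Eif2s1 was lost on leaving out any 1 library except the second Ikaros-Zn4-/- library at 0 min, both Ikaros-Zn4-/- libraries at 30 min and the first WT library at 0 min (adjusted p up to 0.136), and that of Eif2b4 on leaving out any 1 library except both WT libraries at 30 min and the WT library at 120 min (adjusted p up to 0.583).

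Both genes that fell encode the subunits of eIF2B that form its catalytic part. Eif2b3, the gamma subunit (chromosome 4, 117019402 to 117087306), read 0.455 scaled RPKM in Ikaros-Zn4-/- cells and 0.311 in WT cells at 120 min, which rest on 24.0 recovered reads in Ikaros-Zn4-/- and 19.0 in WT cells. The earlier values were 2.42 and 1.66 at 0 min and 1.84 and 2.11 at 30 min in Ikaros-Zn4-/- cells, and 1.72 and 1.40 at 0 min and 1.93 and 2.02 at 30 min in WT cells. The 120 min libraries lay below all others, and the level fell by 1.01 ± 0.17 log2 (limma adjusted p = 0.00188), called under each of the 19 settings that kept it. Eif2b5, the epsilon subunit that carries the exchange activity, fell by 0.60 log2, to 10.98 scaled RPKM in Ikaros-Zn4-/- and 13.7 in WT cells, against 21.6 and 19.9 in Ikaros-Zn4-/- and 17.7 and 17.5 in WT cells at 0 min. In a fit of WT libraries alone its call was lost, as it was without the Ikaros-Zn4-/- library at 120 min (adjusted p = 0.140). The most abundant gene here, Eif2b2, ranged between 21.2 and 31.9 scaled RPKM over all libraries and changed by 0.07 log2 (adjusted p = 0.701), and Eif2b1 and Eif2s3x were not called either.

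Among the 14 genes of eIF3 subunits 5 rose and none fell at 120 min, with a median of 0.28 log2. On the deposited scale 2 rose and 1 fell with a median of -0.01, and with quantile normalization 4 rose and 1 fell. Eif3c, a core subunit (chromosome 7, 126546455 to 126566411), showed the largest rise. It read 71.8 and 77.4 scaled RPKM at 0 min, 61.1 and 78.9 at 30 min and 116 at 120 min in Ikaros-Zn4-/- cells. In WT cells the levels were 59.2 and 64.5 at 0 min, 58.9 and 61.3 at 30 min and 112 at 120 min. The 30 min libraries overlapped those at 0 min, and the 120 min libraries were above all others, a change of 0.74 ± 0.12 log2 (limma adjusted p = 0.00198). The other core subunits Eif3a and Eif3b rose by 0.63 and 0.54 log2, Eif3g, an RNA-binding subunit, by 0.45 and Eif3d, a subunit able to bind caps, by 0.34.

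Eif3a and Eif3c kept their calls under each setting, and Eif3b and Eif3g lost theirs on the deposited scale and with quantile normalization. The call of Eif3g was also lost in WT cells alone and without the Ikaros-Zn4-/- library at 120 min (adjusted p = 0.0972), and that of Eif3d in 12 of 20 settings, among them on leaving out any 1 library except the first Ikaros-Zn4-/- library at 0 min and both Ikaros-Zn4-/- libraries at 30 min (adjusted p up to 0.200). The most abundant subunit gene, Eif3k, read 265 scaled RPKM in Ikaros-Zn4-/- and 199 in WT cells at 120 min, against 252 and 251 in Ikaros-Zn4-/- and 189 and 217 in WT cells at 0 min, 0.02 log2 and not called (adjusted p = 0.908). Eif3e, Eif3f, Eif3h, Eif3i, Eif3l, Eif3m, Eif3j1 and Eif3j2 were not called, with changes between -0.27 (Eif3i) and 0.53 (Eif3j2). Eif3i was called lower on the deposited scale and with quantile normalization, and Eif3j1 and Eif3j2 were called higher with quantile normalization.

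Around the mRNA cap 7 of 15 genes rose and 1 fell at 120 min, with a median of 0.44 log2 (4 rose and 3 fell on the deposited scale, 5 and 3 with quantile normalization). Eif4e, the cap-binding protein (chromosome 3, 138526179 to 138559696), rose most. Its level was 6.01 and 5.04 scaled RPKM at 0 min, 3.70 and 4.02 at 30 min and 13.4 at 120 min in Ikaros-Zn4-/- cells. The WT libraries read 4.12 and 4.55 at 0 min, 4.84 and 5.76 at 30 min and 8.92 at 120 min. The 120 min libraries stood above the other 8, and the change was 1.02 ± 0.13 log2 (limma adjusted p = 0.000486), called under each setting.

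Of its relatives Eif4e2, a cap-binding homologue linked to repression, read 20.7 scaled RPKM in Ikaros-Zn4-/- and 20.2 in WT cells at 120 min, against 13.05 and 13.1 in Ikaros-Zn4-/- and 10.9 and 11.53 in WT cells at 0 min, and rose by 0.71 log2 under each setting. Eif4e3 read 5.44 and 7.49 at 0 min, 4.52 and 7.63 at 30 min and 4.33 at 120 min in Ikaros-Zn4-/- cells. For WT cells these were 2.69 and 3.19 at 0 min, 2.83 and 3.63 at 30 min and 4.71 at 120 min. Over both genotypes its change at 120 min was 0.03 log2 (adjusted p = 0.908), with the Ikaros-Zn4-/- libraries lower and the WT library higher than their own 0 min levels, and the sign turned in other settings.

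Of the eIF4A helicases, which unwind the leader, Eif4a3, the helicase of the exon junction complex, rose under each setting by 0.96 ± 0.10 log2 (limma adjusted p = 0.000224), to 61.8 scaled RPKM in Ikaros-Zn4-/- and 51.2 in WT cells, against 26.8 and 31.9 in Ikaros-Zn4-/- and 27.7 and 27.5 in WT cells at 0 min. Eif4a2 was higher at 30 min, at 100.3 and 91.4 in Ikaros-Zn4-/- and 120.1 and 119 in WT cells, against 84.5 and 63.9 in Ikaros-Zn4-/- and 90.5 and 89.8 in WT cells at 0 min. At 120 min it was lower again, at 70.5 in Ikaros-Zn4-/- and 68.6 in WT cells. Against 0 min that was -0.22 log2 and not called, but called lower on the deposited scale (-0.51, adjusted p = 0.00970) and with quantile normalization (-0.54, adjusted p = 0.0129). It was called higher at 30 min against 0 min (0.39 log2, adjusted p = 0.0463), a call lost on leaving out any 1 library except the first Ikaros-Zn4-/- library at 0 min, the Ikaros-Zn4-/- library at 120 min and the WT library at 120 min (adjusted p up to 0.135). At 120 min against 30 min it fell by 0.61 log2 (adjusted p = 0.00674), a call lost without the WT library at 120 min (adjusted p = 0.0989). The call of Eif4a2 at 30 min was also lost on the deposited scale and with quantile normalization, at 0.27 and 0.22 log2. Eif4a1, the main helicase of eIF4F in most cells, varied between libraries of a group, at 29.9 and 15.4 in Ikaros-Zn4-/- and 27.7 and 14.9 in WT cells at 0 min. Its changes of 1.01 log2 at 30 min and 0.80 at 120 min were not called (adjusted p = 0.0617 and 0.0959).

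Of the eIF4G scaffolds Eif4g2, a form without the eIF4E site, was the most abundant and rose. It read 101 and 109 scaled RPKM at 0 min, 121 and 130.5 at 30 min and 203 at 120 min in Ikaros-Zn4-/- cells. Levels in WT cells were 98.8 and 117 at 0 min, 140.0 and 162 at 30 min and 195 at 120 min. The change was 0.90 ± 0.12 log2 at 120 min (limma adjusted p = 0.000622), called under each setting. Eif4g1 read lower at 30 min with a change of -0.23 log2, which was not called. On the deposited scale and with quantile normalization it was called lower at 30 min, at -0.35 and -0.34 log2. At 120 min it rose by 0.41 log2, to 88.4 in Ikaros-Zn4-/- and 82.3 in WT cells, against 63.8 and 65.5 in Ikaros-Zn4-/- and 65.8 and 60.7 in WT cells at 0 min. The call was lost on the deposited scale, with quantile normalization and in WT cells alone. Eif4g3 lay between 26.3 and 31.7 in all 10 libraries and was not called (-0.05 log2, adjusted p = 0.697). On the deposited scale and with quantile normalization it was called lower, at -0.33 and -0.30 log2, and its sign turned in 1 other setting.

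The eIF4E-binding proteins hold eIF4E away from eIF4G until mTOR phosphorylates them. Eif4ebp2, by far the most abundant, fell by 0.63 ± 0.17 log2 at 120 min (limma adjusted p = 0.0143). It read 35.4 scaled RPKM in Ikaros-Zn4-/- cells at 120 min against 79.4 and 67.6 at 0 min, and 59.0 in WT cells against 61.0 and 78.5. The WT value lay just below its own 0 min range, and the call was lost in WT cells alone and without the Ikaros-Zn4-/- library at 120 min (adjusted p = 0.518). Eif4ebp1, at 2.97 to 7.44 over all libraries, and Eif4ebp3, at 0.404 to 2.01, were not called at 120 min against 0 min. Of the other cap genes Eif4b, a helper of the helicase, rose by 0.61 log2 and Eif4enif1, a carrier of eIF4E, by 0.55, with both calls lost on the deposited scale and in WT cells alone, that of Eif4b also with quantile normalization and that of Eif4enif1 also without the Ikaros-Zn4-/- library at 120 min (adjusted p = 0.0650). Eif4h, a relative of Eif4b, was not called at 0.20 log2.

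**Figure D3:**
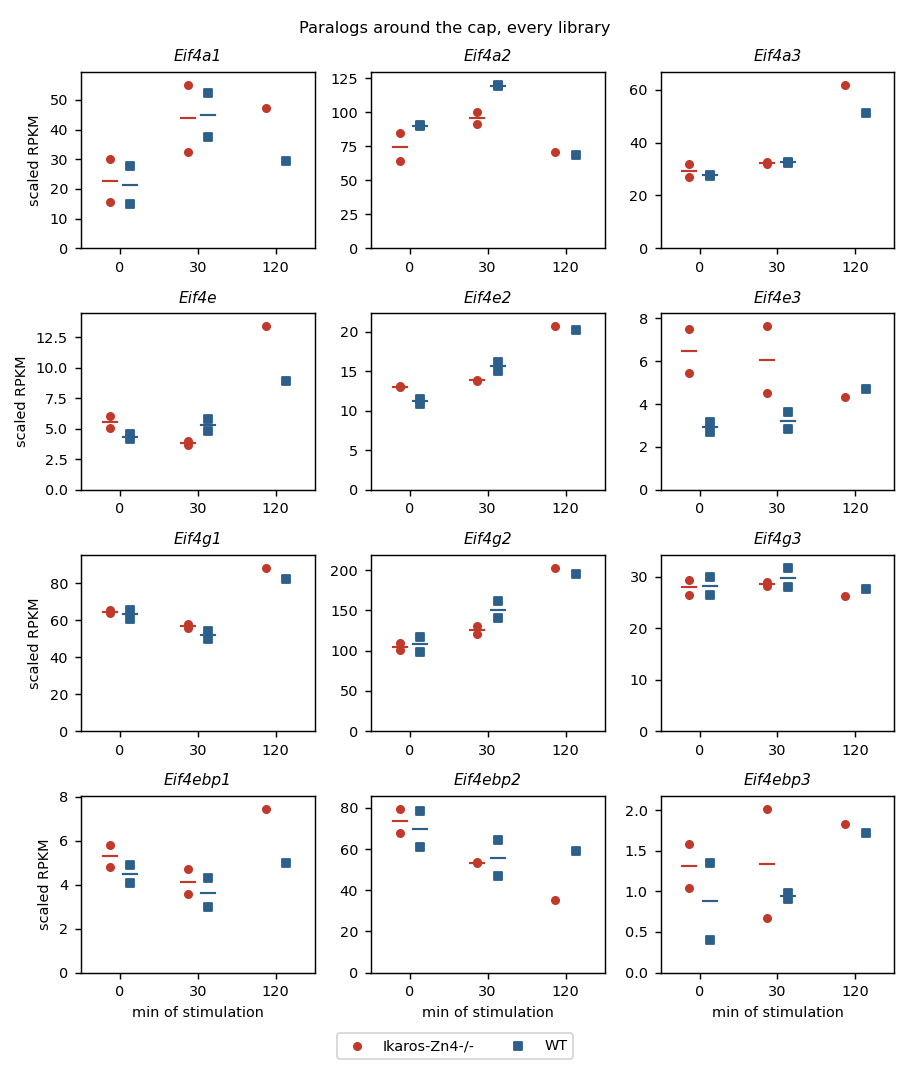
Scaled RPKM of the paralogs of eIF4A, eIF4E, eIF4G and the eIF4E-binding proteins in every library against min of stimulation; points are libraries, bars the mean of 2 libraries, Ikaros-Zn4-/- left of WT. Eif4a3, Eif4e, Eif4e2, Eif4g1 and Eif4g2 are highest at 120 min in both genotypes, Eif4a2 is highest at 30 min in both, and Eif4ebp2 is lowest at 120 min in Ikaros-Zn4-/- cells.

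Eif6, which keeps free large subunits from joining small ones (chromosome 2, 155819832 to 155826925), was called higher at 120 min and not at 30 min. Its level was 24.2 and 28.9 scaled RPKM at 0 min, 25.4 and 28.8 at 30 min and 57.4 at 120 min in Ikaros-Zn4-/- cells. WT cells had 29.9 and 25.9 at 0 min, 25.2 and 19.6 at 30 min and 47.2 at 120 min. At 30 min it overlapped the 0 min libraries, and at 120 min it was above all of them, by 0.92 ± 0.14 log2 (limma adjusted p = 0.00139) under each setting. Eif5a, a factor for difficult peptide bonds, read 162 in Ikaros-Zn4-/- and 144 in WT cells at 120 min, against 114 and 149.6 in Ikaros-Zn4-/- and 100.1 and 118 in WT cells at 0 min, 0.36 log2 and not called (adjusted p = 0.0958). Its paralog Eif5a2 has no row under that symbol among the 12637 genes.

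Among the genes grouped under elongation by their Eef symbols 1 of 7 rose and 1, the gene of the kinase that restrains elongation, fell at 120 min. Eef2k, the kinase that inhibits eEF2 (chromosome 7, 120842831 to 120907450), read 3.33 and 3.29 scaled RPKM at 0 min, 3.06 and 3.37 at 30 min and 0.518 at 120 min in Ikaros-Zn4-/- cells. In WT cells it read 2.72 and 2.49 at 0 min, 2.38 and 2.46 at 30 min and 0.402 at 120 min. These 120 min values rest on 31.0 recovered reads in Ikaros-Zn4-/- and 27.9 in WT cells, and they lay far below every earlier library, so that the level fell by 1.43 ± 0.13 log2 (limma adjusted p = 0.000123), called under each setting. Over 20 alternative settings its change ran between -2.67 and -1.16 log2.

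Its substrate Eef2 read 1129 and 1621 scaled RPKM at 0 min, 1922 and 2445 at 30 min and 2147 at 120 min in Ikaros-Zn4-/- cells. In WT cells the levels were 1342 and 1467 at 0 min, 1574 and 1706 at 30 min and 1882 at 120 min. The rise of 0.54 ± 0.19 log2 at 120 min (limma adjusted p = 0.0422) was called, and the call was lost in 12 of 20 settings, among them on leaving out any 1 library except the second Ikaros-Zn4-/- library at 0 min and the first Ikaros-Zn4-/- library at 30 min (adjusted p up to 0.234). Eef1a1 read 1372 in Ikaros-Zn4-/- and 1136 in WT cells at 120 min, against 1222 and 1205 in Ikaros-Zn4-/- and 924 and 1109 in WT cells at 0 min, and its 0.17 log2 (adjusted p = 0.375) turned negative on the deposited scale and with quantile normalization. Eef1b2, Eef1d, Eef1g and Eef1e1 were not called, at 0.09 to 0.26 log2. On the deposited scale all of these were negative, from -0.20 (Eef1d) to -0.03 (Eef1b2). With quantile normalization Eef1d, Eef1g and Eef1e1 were negative. The median of the group was 0.15 log2, but -0.13 on the deposited scale and -0.01 with quantile normalization. On each scale this median was the value of Eef1e1, which is in the group by its symbol alone. Eef1a2 has no row under that symbol among the 12637 genes.

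Of the 20 tRNA synthetase genes 6 rose and 5 fell at 120 min, shares near the 26.5% higher and 32.8% lower over all genes tested, with a median of 0.01 log2, while on the deposited scale 3 rose and 8 fell and with quantile normalization 4 rose and 7 fell. In the multisynthetase complex, which joins 8 of these enzymes in animal cells, 2 rose, 2 fell and 4 were not called. Eprs, the fused enzyme for glutamate and proline (chromosome 1, 185363044 to 185428360), had 30.9 and 28.3 scaled RPKM at 0 min, 23.8 and 27.8 at 30 min and 47.1 at 120 min in Ikaros-Zn4-/- cells. WT cells had 24.5 and 24.0 at 0 min, 23.8 and 22.8 at 30 min and 43.4 at 120 min. The level rose by 0.73 ± 0.10 log2 (limma adjusted p = 0.000797) under each setting, and the 120 min libraries were above all others. Rars, for arginine, rose by 0.38 log2, a call lost in 13 of 20 settings, among them on leaving out any 1 library except both Ikaros-Zn4-/- libraries at 30 min (adjusted p up to 0.185).

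Dars, for aspartate (chromosome 1, 128363707 to 128417368), showed the largest fall of all 79 members. Its level was 14.7 and 15.2 scaled RPKM at 0 min, 11.7 and 15.6 at 30 min and 3.74 at 120 min in Ikaros-Zn4-/- cells. The WT libraries read 12.6 and 13.5 at 0 min, 10.3 and 11.2 at 30 min and 2.69 at 120 min. Over both genotypes the 30 min libraries overlapped those at 0 min, whereas both at 120 min were far below, a change of -1.84 ± 0.13 log2 (limma adjusted p = 6.55e-05). Mars, for methionine, fell by 0.90 ± 0.10 log2, to 9.32 in Ikaros-Zn4-/- and 7.70 in WT cells, against 19.8 and 17.3 in Ikaros-Zn4-/- and 15.1 and 15.2 in WT cells at 0 min. The gene on the other strand of Mars is Ddit3, which rose, as given with the stress response genes. Both falls were called under each setting. Kars, the most abundant synthetase gene, read 59.6 in Ikaros-Zn4-/- and 42.9 in WT cells at 120 min, against 63.8 and 58.0 in Ikaros-Zn4-/- and 48.6 and 50.6 in WT cells at 0 min (-0.12 log2, adjusted p = 0.501). Iars, Lars and Qars were not called at 120 min, at -0.15, 0.07 and -0.04 log2. Kars was called lower with quantile normalization and Iars on the deposited scale.

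Of the 12 synthetases outside the complex 4 rose and 3 fell. Aars, for alanine (chromosome 8, 111033144 to 111057664), rose most. It read 5.96 and 7.68 scaled RPKM at 0 min, 8.84 and 6.95 at 30 min and 15.7 at 120 min in Ikaros-Zn4-/- cells. For WT cells these were 5.39 and 4.66 at 0 min, 6.77 and 5.01 at 30 min and 14.6 at 120 min. The 30 min values overlapped those at 0 min, and at 120 min both libraries were above all others, a change of 1.24 ± 0.17 log2 (limma adjusted p = 0.000749). Hars, for histidine, rose by 0.80 ± 0.10 log2, to 41.9 in Ikaros-Zn4-/- and 41.2 in WT cells, against 25.7 and 22.2 in Ikaros-Zn4-/- and 22.9 and 22.8 in WT cells at 0 min. Aars and Hars kept their calls under each setting, and the gene on the other strand of Hars is its mitochondrial paralog Hars2.

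Gars, for glycine, had the highest mean of these 12 over all libraries, although Vars was above it in 3 of the 4 libraries at 0 min. It read 52.7 scaled RPKM in Ikaros-Zn4-/- and 49.2 in WT cells at 120 min, against 45.01 and 42.1 in Ikaros-Zn4-/- and 35.6 and 33.5 in WT cells at 0 min. Its rise of 0.38 ± 0.09 log2 (limma adjusted p = 0.00978) lost the call on the deposited scale, with quantile normalization, in Ikaros-Zn4-/- libraries alone and without the WT library at 120 min (adjusted p = 0.111). Cars rose by 0.37 log2, a call lost in 11 of 20 settings, among them on leaving out any 1 library except the first Ikaros-Zn4-/- library at 0 min and both WT libraries at 30 min (adjusted p up to 0.309).

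Wars, for tryptophan (chromosome 12, 108860030 to 108894174), was the largest faller of the 12. Its level was 17.4 and 24.7 scaled RPKM at 0 min, 14.7 and 17.9 at 30 min and 5.63 at 120 min in Ikaros-Zn4-/- cells. Levels in WT cells were 18.1 and 15.5 at 0 min, 12.8 and 10.7 at 30 min and 4.74 at 120 min. The libraries at 120 min were below all others, a change of -1.67 ± 0.17 log2 (limma adjusted p = 0.000217). The genes of phenylalanyl-tRNA synthetase, an enzyme of alpha and beta chains, were not both called: Farsb, the beta chain, fell by 1.11 ± 0.17 log2, to 9.53 in Ikaros-Zn4-/- and 7.45 in WT cells, against 22.9 and 16.5 in Ikaros-Zn4-/- and 17.8 and 20.9 in WT cells at 0 min. Farsa, the alpha chain, read 22.4 in Ikaros-Zn4-/- and 25.9 in WT cells at 120 min, against 21.7 and 20.5 in Ikaros-Zn4-/- and 24.0 and 22.0 in WT cells at 0 min, 0.12 log2 and not called (adjusted p = 0.272). The difference between these changes was not tested. Vars, for valine, fell by 0.62 log2. The falls of Wars, Farsb and Vars were called under each setting. Nars, Sars, Tars and Yars were not called, at -0.22 (Yars) to 0.24 (Nars), but Sars on the deposited scale and with quantile normalization and Yars on the deposited scale were called lower.

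**Figure D4:**
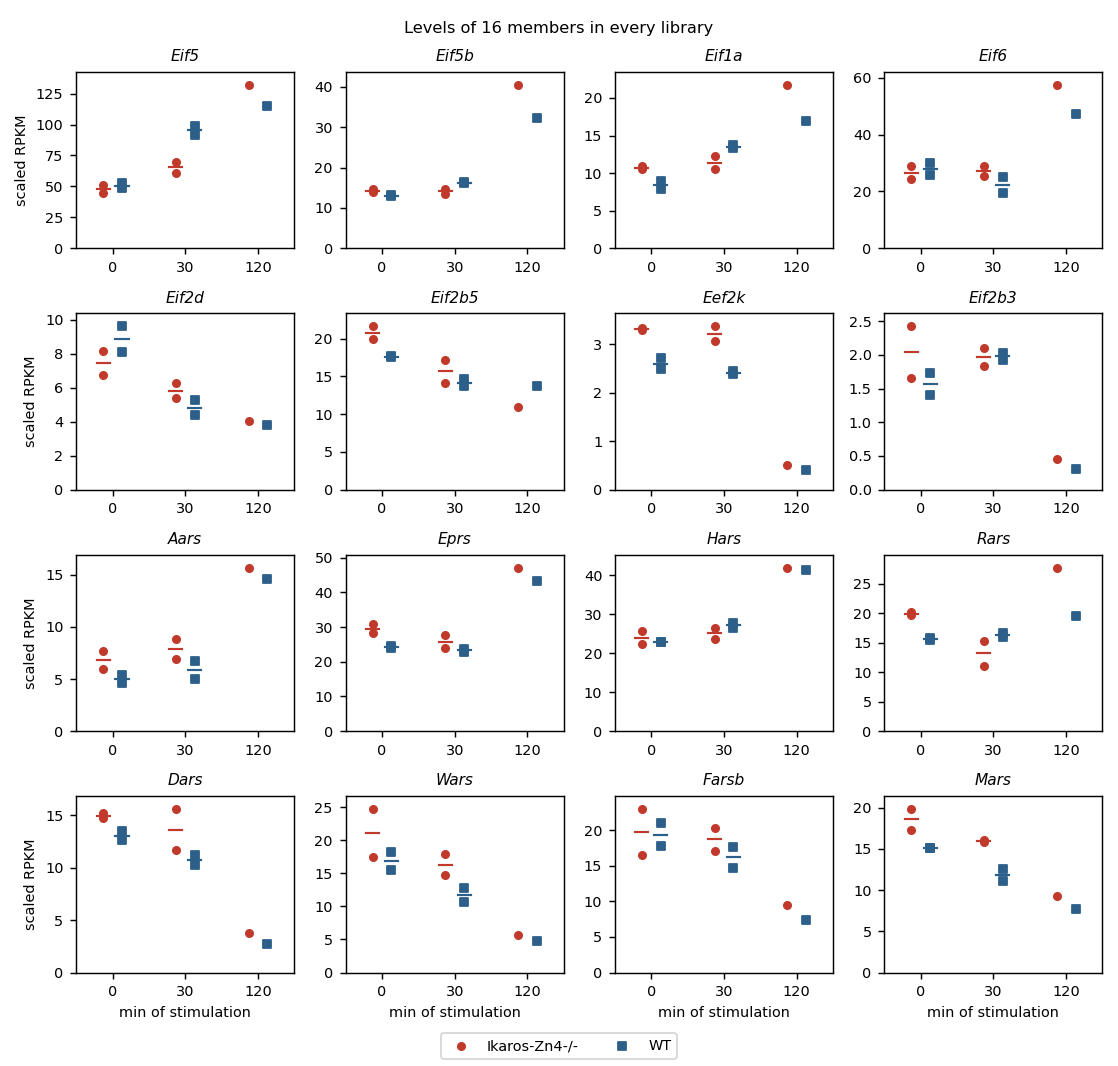
Scaled RPKM of 16 members in every library against min of stimulation; points are libraries, bars the mean of 2 libraries, Ikaros-Zn4-/- left of WT. Eif5 climbs at each time, Eif5b, Eif6, Aars, Eprs and Hars are highest at 120 min in both genotypes, and Eif2d, Eef2k, Eif2b3, Dars, Wars, Farsb and Mars are lowest there in both.

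The promoters of synthetase genes are shown because this enzyme family is known to be activated in amino acid shortage by ATF4, which binds the C/EBP-ATF response element, while Myc binds the E-box. RefSeq promoters of GRCm38.p6, 250 bases before to 50 after the start, were found for 55 of 79 members, among them 13 synthetase genes. The letters TGATGNAAN, searched on both strands, occurred in 5 of these 13 (Aars, Gars, Iars, Tars and Yars) and in 4.50% of all 27025 genes with a promoter in the table. Of the 5, Aars and Gars rose at 120 min and Iars, Tars and Yars were not called, and none of the 3 synthetase genes with a promoter that fell holds these letters. Among the 42 factor genes with a promoter the letters occurred in 2, Eef2k, which fell, and Eif2s3x, which was not called. None of the 19 factor genes with a promoter that rose holds them. The E-box CACGTG occurred in 4 of the 13 and in 15 of all 55, against 8.09% of all genes. The 4 were Aars, which rose, Farsb, which fell, and Iars and Tars, which were not called. A match is a description of the letters only. In the sequences, capitals mark matches to either motif on either strand, and each sequence runs 5′ to 3′ on the strand of the gene. They lie at chr8:111033592-111033891 (plus strand), chr6:55037751-55038050 (plus), chr13:49681880-49682179 (plus), chr15:11399609-11399908 (minus), chr4:129189653-129189952 (plus) and, for Dars, the gene with the largest fall, which holds no match, chr1:128417367-128417666 (minus).
Aars: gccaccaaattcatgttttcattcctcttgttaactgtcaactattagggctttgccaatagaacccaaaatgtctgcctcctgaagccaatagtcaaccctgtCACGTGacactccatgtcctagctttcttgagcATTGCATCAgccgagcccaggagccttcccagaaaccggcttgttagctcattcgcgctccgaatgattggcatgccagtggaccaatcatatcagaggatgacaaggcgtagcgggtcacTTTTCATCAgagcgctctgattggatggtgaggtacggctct
Gars: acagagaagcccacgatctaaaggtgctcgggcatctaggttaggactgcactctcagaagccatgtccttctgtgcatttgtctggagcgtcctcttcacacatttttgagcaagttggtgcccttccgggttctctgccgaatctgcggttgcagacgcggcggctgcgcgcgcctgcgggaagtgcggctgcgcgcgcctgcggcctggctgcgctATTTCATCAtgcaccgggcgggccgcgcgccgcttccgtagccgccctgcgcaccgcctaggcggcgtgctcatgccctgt
Iars: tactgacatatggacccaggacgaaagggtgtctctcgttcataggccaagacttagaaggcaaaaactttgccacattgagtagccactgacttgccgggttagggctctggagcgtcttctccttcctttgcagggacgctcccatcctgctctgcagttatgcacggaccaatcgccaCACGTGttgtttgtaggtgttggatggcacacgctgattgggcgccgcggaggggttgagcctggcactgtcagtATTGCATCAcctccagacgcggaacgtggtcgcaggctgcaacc
Tars: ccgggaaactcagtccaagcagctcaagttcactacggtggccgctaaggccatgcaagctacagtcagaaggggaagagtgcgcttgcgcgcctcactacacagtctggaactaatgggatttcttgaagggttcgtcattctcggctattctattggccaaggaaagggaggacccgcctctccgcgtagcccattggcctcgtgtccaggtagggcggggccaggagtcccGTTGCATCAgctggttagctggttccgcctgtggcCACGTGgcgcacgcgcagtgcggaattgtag
Yars: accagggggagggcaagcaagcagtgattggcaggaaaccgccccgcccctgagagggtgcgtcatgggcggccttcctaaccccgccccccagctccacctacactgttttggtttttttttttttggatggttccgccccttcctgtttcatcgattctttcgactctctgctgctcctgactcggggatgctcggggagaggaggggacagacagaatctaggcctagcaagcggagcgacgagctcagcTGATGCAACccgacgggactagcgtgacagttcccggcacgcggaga
Dars: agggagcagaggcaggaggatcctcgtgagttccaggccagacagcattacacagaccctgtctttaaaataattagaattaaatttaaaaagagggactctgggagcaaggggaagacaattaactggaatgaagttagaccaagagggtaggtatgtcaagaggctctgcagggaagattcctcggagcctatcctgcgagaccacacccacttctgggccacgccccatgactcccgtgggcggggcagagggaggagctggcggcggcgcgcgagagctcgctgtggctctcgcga
In Aars the response element begins 113 bases before the start, with another 8 bases after it, and an E-box stands 146 bases before the start. In Gars the element is 31 bases before the start, in Tars 16 before, in Iars 6 after and in Yars 3 after. Beside these sequences the changes at 120 min were 1.24 log2 for Aars, 0.38 for Gars, -0.15 for Iars, 0.13 for Tars, -0.22 for Yars and -1.84 for Dars. The letters TGATGNAAN thus stood near the start of synthetase genes that rose and of synthetase genes that were not called. They also stood there in Eef2k, a factor gene that fell (-1.43 log2).

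The 4 pseudogenes were not called at 120 min. Eif3s6-ps2, a copy of the Eif3e gene and the most abundant of them, read 115 scaled RPKM in Ikaros-Zn4-/- and 76.0 in WT cells at 120 min, against 82.9 and 103 in Ikaros-Zn4-/- and 55.9 and 70.0 in WT cells at 0 min. The others were Eif3s6-ps1 (mean 43.2 scaled RPKM), Eif5al3-ps (48.1) and Eif1-ps1 (18.7), and changed by 0.16, 0.23 and 0.56 log2. Such rows may hold reads of the parent gene.

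At 30 min few members were called, in shares near those of all genes tested. At an unadjusted limma p below 0.05 against 0 min, 13 members were higher and 13 lower. Of all 12203 genes 1864 were higher and 2137 lower at that threshold. Against 0 min 7 of 79 rose and 5 fell, where 16.4% of all genes tested were called, 8.69% higher and 7.72% lower, and the median was 0.05 log2 against -0.03 over all genes. This comparison shares its 0 min libraries with the one at 120 min. Besides Eif5, Eif1a and Eif4a2, the risers were Eif2s2 (0.51 log2), Eif2a (0.50), Eif4g2 (0.37) and the pseudogene Eif1-ps1 (0.71). Eif2a read 11.7 and 13.9 scaled RPKM in Ikaros-Zn4-/- and 10.97 and 12.4 in WT cells at 30 min, against 9.45 and 8.98 in Ikaros-Zn4-/- and 7.77 and 7.40 in WT cells at 0 min, with no overlap of the times in either genotype.

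Lower at 30 min were Eif2d (-0.53 log2), Eif2s1 (-0.41), Iars (-0.41), Eif2b5 (-0.34) and Farsa (-0.30). Eif2s1 read 8.46 and 10.3 scaled RPKM in Ikaros-Zn4-/- and 9.32 and 9.79 in WT cells at 30 min, against 13.04 and 15.0 in Ikaros-Zn4-/- and 12.9 and 10.7 in WT cells at 0 min. It then read 18.5 in Ikaros-Zn4-/- and 15.5 in WT cells at 120 min, so that its call turned from lower at 30 min to higher at 120 min. No call at 30 min held under each of 21 alternative settings and left-out libraries: that of Eif5 was lost in Ikaros-Zn4-/- libraries alone, and the other 11 when either WT library at 0 min was left out, with adjusted p up to 0.142 over all left-out libraries. With RPKM as deposited 1 rose and 9 fell, and with quantile normalization 5 rose and 7 fell. In fits of 1 genotype none of the 79 was called in Ikaros-Zn4-/- cells, and 2 rose and 1 fell in WT cells; leaving out single libraries gave 1 to 7 higher and 0 to 5 lower.

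Between 30 and 120 min 27 members rose and 8 fell, where 50.4% of all genes tested were called, 22.8% higher and 27.7% lower. With RPKM as deposited 18 rose and 13 fell, and without the Ikaros-Zn4-/- library at 120 min 17 rose. Called in this step and not against 0 min were Eif4h (0.48 log2), Eif4ebp1 (0.55) and Farsa (0.43) among those higher, and Eif4a2 among those lower. The calls of Eif4h, Eif4ebp1 and Farsa were lost on the deposited scale, at 0.31, 0.41 and 0.27 log2. That of Eif4h was also lost with quantile normalization, at 0.32 log2. When single libraries were left out, the call of Eif4h was lost without the second WT library at 30 min or the WT library at 120 min (adjusted p up to 0.287). That of Farsa was lost without the WT library at 120 min (adjusted p = 0.0914), and that of Eif4ebp1 on leaving out any 1 library except both Ikaros-Zn4-/- libraries at 0 min, the second Ikaros-Zn4-/- library at 30 min and the second WT library at 30 min (adjusted p up to 0.281). Eif2s1 (0.78 log2), Rars (0.64) and Eif4g1 (0.64) were higher by more in this step than against 0 min. Eif2s1 and Eif4g1 had read lower at 30 min in both genotypes, while Rars had changed by -0.58 log2 in Ikaros-Zn4-/- and 0.06 in WT cells at 30 min. The call of Rars was lost without the Ikaros-Zn4-/- library at 120 min (adjusted p = 0.323). Of the 35 calls 21 held under each setting.

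Between genotypes more members read higher than lower in Ikaros-Zn4-/- cells. Over all times 7 of 79 were higher in Ikaros-Zn4-/- cells and none lower, where 10.2% of all genes tested were called, 6.24% higher and 3.95% lower. At an unadjusted limma p below 0.05, 36 members were higher and 1 lower, and of 12203 genes 1576 were higher and 1406 lower. Limma-voom on recovered reads called no member lower as well. The median difference was 0.20 log2 against -0.02 over all genes tested, and 67 of 79 members were above 0. The genotype groups hold 5 libraries each, and markers of other cells were not level between them. Gzma did not overlap between the genotypes. The B cell markers summed to 4.27 to 9.36 scaled RPKM in Ikaros-Zn4-/- and 7.38 to 13.99 in WT libraries, and the myeloid markers to 27.9 to 96.5 in Ikaros-Zn4-/- and 27.6 to 55.7 in WT libraries. Their part in the differences was not tested.

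Of the 7, 4 are genes of eIF3. Eif3m (chromosome 2, 104999656 to 105017080) read 24.1 and 24.9 scaled RPKM at 0 min, 24.2 and 32.7 at 30 min and 26.5 at 120 min in Ikaros-Zn4-/- cells. WT cells had 18.1 and 18.1 at 0 min, 20.9 and 20.2 at 30 min and 16.3 at 120 min. Eif3f (chromosome 7, 108934417 to 108942951) read 149 and 150.3 at 0 min, 154 and 179 at 30 min and 173 at 120 min in Ikaros-Zn4-/- cells. In WT cells the levels were 108 and 115 at 0 min, 112 and 127 at 30 min and 127 at 120 min. For both genes every Ikaros-Zn4-/- library was above every WT library. The difference was 0.47 ± 0.09 log2 for Eif3m (limma adjusted p = 0.0119) and 0.44 ± 0.07 for Eif3f (adjusted p = 0.00530), and only these 2 of the 7 calls held under each of 18 settings and left-out libraries.

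Eif3i was higher by 0.37 log2, at 37.6 and 39.2 scaled RPKM at 0 min, 36.4 and 46.6 at 30 min and 34.6 at 120 min in Ikaros-Zn4-/- cells. The WT libraries read 30.1 and 31.5 at 0 min, 29.9 and 35.1 at 30 min and 23.2 at 120 min. Within each time the genotypes did not overlap, and across times the Ikaros-Zn4-/- library at 120 min lay below the second WT library at 30 min. Eif3d was higher by 0.33 log2, with overlap across times, and read 58.9 and 47.3 at 0 min, 46.2 and 51.7 at 30 min and 71.1 at 120 min in Ikaros-Zn4-/- cells. For WT cells these were 44.1 and 44.7 at 0 min, 37.8 and 37.5 at 30 min and 53.2 at 120 min. Eif3i lost its call on the deposited scale, with quantile normalization and on leaving out any 1 library except the first Ikaros-Zn4-/- library at 30 min and the second WT library at 30 min (adjusted p up to 0.101). Eif3d lost its call on leaving out any 1 library except the second Ikaros-Zn4-/- library at 0 min (adjusted p up to 0.0924).

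Outside eIF3, Eef1g, a subunit of the eEF1A exchange factor, read 41.4 and 42.5 scaled RPKM at 0 min, 40.4 and 43.1 at 30 min and 43.3 at 120 min in Ikaros-Zn4-/- cells. Levels in WT cells were 30.5 and 27.5 at 0 min, 33.5 and 37.4 at 30 min and 31.9 at 120 min. It did not overlap between genotypes and differed by 0.39 ± 0.08 log2 (limma adjusted p = 0.0168). Qars, for glutamine, did not overlap either, at 32.9 and 28.9 at 0 min, 30.3 and 33.1 at 30 min and 32.1 at 120 min in Ikaros-Zn4-/- cells, against 24.9 and 27.0 at 0 min, 22.1 and 24.7 at 30 min and 23.6 at 120 min in WT cells, and differed by 0.35 log2. Mars differed by 0.32 log2, with overlap across times. The call of Eef1g was lost without the second Ikaros-Zn4-/- library at 0 min, the second WT library at 0 min or the first WT library at 30 min (adjusted p up to 0.0520). That of Qars was lost on leaving out any 1 library except the second Ikaros-Zn4-/- library at 0 min, the first Ikaros-Zn4-/- library at 30 min, the second WT library at 0 min and the second WT library at 30 min (adjusted p up to 0.0746), and that of Mars on leaving out any 1 library except the second Ikaros-Zn4-/- library at 0 min, the Ikaros-Zn4-/- library at 120 min and the WT library at 120 min (adjusted p up to 0.0842).

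In 7 members all 5 Ikaros-Zn4-/- libraries lay above all 5 WT libraries (Eef1g, Eif3f, Eif3k, Eif3m, Eif5al3-ps, Qars and Yars) and in none below, where 2.96% of all genes tested lay above and 1.1% below. Leaving out single libraries gave 2 to 10 members called higher, and limma-voom on recovered reads gave 13. The largest difference of all, 0.63 log2 for Eif4e3, was not called (adjusted p = 0.0665): the genotypes did not overlap at 0 and 30 min, with Ikaros-Zn4-/- higher, and at 120 min the Ikaros-Zn4-/- library read slightly lower than the WT library. Within the Ikaros-Zn4-/- group at 30 min, 57 of 79 members were higher in the second, shallower library than in the first, where 47.5% of all genes were.

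**Figure D5:**
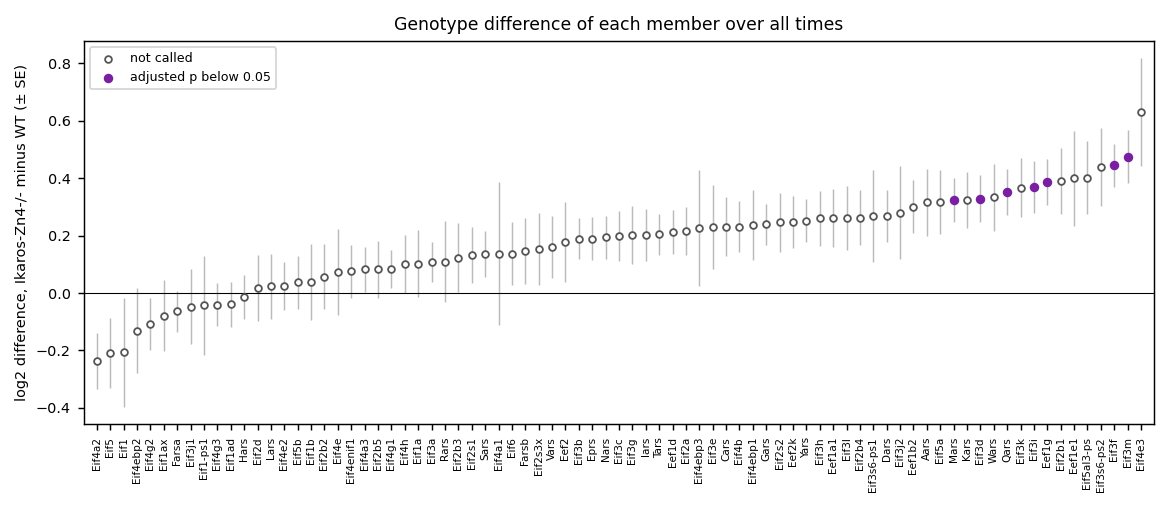
Log2 difference of scaled RPKM + 1, Ikaros-Zn4-/- minus WT over all times, with its standard error, for each of the 79 members in order of size; filled points have an adjusted p below 0.05. Of the points 67 lie above 0, and the 7 filled ones lie between 0.32 and 0.47.

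The responses to stimulation were also compared between genotypes. The limma test of this difference called no member at 30 or at 120 min, where 0% of all 12203 genes tested were called (708 at 30 min and 732 at 120 min at an unadjusted p below 0.05), and limma-voom on recovered reads called no member either. At an unadjusted p below 0.05 there were 7 members at 30 min and 1 at 120 min. At 30 min these were Eif4e (-0.66 log2, Ikaros-Zn4-/- minus WT response), Rars (-0.63), Eif1a (-0.55), Eif5 (-0.46), Eif4e2 (-0.37), Eif2b4 (0.40) and Vars (0.51), each with an adjusted p of 0.812. For Eif5 the response was 0.44 log2 in Ikaros-Zn4-/- cells and 0.90 in WT cells, and its 30 min libraries did not overlap between genotypes. At 120 min it was Eif4ebp2 (-0.80 log2, adjusted p = 0.827), with a response of -1.03 log2 in Ikaros-Zn4-/- and -0.23 in WT cells. Missing the threshold in groups of 1 or 2 libraries does not show that the responses were alike.

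Genes that act on these factors were described from lists by their counts. Of 13 measured genes of the eIF2 kinases and the integrated stress response, in which phosphorylated eIF2 lowers general translation and favours that of Atf4, 8 rose and 1 fell at 120 min, with a median of 0.76 log2, and 8 rose at 30 min, where 8.69% of all genes tested rose. Eif2ak3, the kinase of the endoplasmic reticulum known as PERK, read 148 scaled RPKM in Ikaros-Zn4-/- and 91.9 in WT cells at 120 min, against 12.5 and 11.7 in Ikaros-Zn4-/- and 7.22 and 7.18 in WT cells at 0 min, a rise of 3.502 log2. Atf4, the transcription factor of this response, rose by 1.10 log2, to 364 in Ikaros-Zn4-/- and 310.0 in WT cells against 167 and 114 in Ikaros-Zn4-/- and 217 and 145 in WT cells at 0 min. Its targets Sesn2, Ddit3 and Trib3 rose by 3.16, 1.33 and 1.30 log2. Eif2ak4, the kinase that senses uncharged tRNA, rose by 0.76, and Eif2ak1 was not called at 0.25. Eif2ak2, the kinase of double-stranded RNA, fell by 0.65. It was the only gene of the list called between genotypes (0.45 log2 higher in Ikaros-Zn4-/- cells over all times). Eif2ak3 was not called there, although its values at 0 and 120 min were higher in Ikaros-Zn4-/- than in WT cells.

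Among 14 regulators of initiation and poly(A) binding 8 rose and 2 fell at 120 min. Larp4, a La-related protein that binds poly(A), rose by 1.79 log2 and Ddx3x, a helicase for structured leaders, by 1.62. Mcts1, a partner of Denr in reinitiation, fell by 2.37, to 1.81 scaled RPKM in Ikaros-Zn4-/- and 2.72 in WT cells, against 15.2 and 17.0 in Ikaros-Zn4-/- and 13.96 and 16.7 in WT cells at 0 min. Pdcd4, an inhibitor of eIF4A, was not called at 120 min (-0.25 log2) and was lower in Ikaros-Zn4-/- cells with a difference of -0.50 log2, and Larp1, a regulator of ribosomal protein mRNAs, was higher there by 0.33 log2. Of 8 genes of termination, recycling and eIF5A modification 4 rose and 1 fell: the release factor Etf1 rose by 1.77 log2 and Hbs1l, a rescue GTPase, by 1.67, and Eefsec, the selenocysteine elongation factor, fell by 0.88. Of the 2 genes listed here as scaffolds of the multisynthetase complex, a list that need not be complete, Aimp1 fell by 0.65 log2 and Aimp2 was not called. Of all genes tested 26.5% rose and 32.8% fell at 120 min, and between genotypes 6.24% were higher and 3.95% lower. The scaling alternatives were not run for these lists.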

How the data were processed

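The authors deposited RPKM per gene for each of 10 libraries. The submitters' processing notes name TopHat, TopHat2 2.0.12 and HTSeq 0.6.1 and the builds mm10 and GRCm38; for their roles, the annotation, the lengths and the row filter, nothing is stated (not given in the sources used here). Per the labels' protocols libraries were made with a TruSeq RNA v2 kit, which does not mark strand. With GENCODE M21 gene lengths, 65.8 to 71.2% of values under 200 reads per library were whole reads within 0.01 (2% by chance), which gave depths of 4.50 to 13.3 M reads.

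RPKM were divided by a median-ratio factor per library. The 12203 genes that averaged 0.5 RPKM or more entered limma 3.58.1 in R 4.3.3 on log2(scaled RPKM + 1), with a mean-variance trend and 1 mean per group (4 residual degrees of freedom). The genotype difference came from a fit of genotype plus time (6 residual degrees of freedom). Tests are two-sided. The fit was tested on simulated data. Figures were drawn with matplotlib 3.10.9 in Python 3.11.15, with tables handled in pandas 2.3.3 and numpy 2.4.6.

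Members named in full are the most abundant, the largest riser and the largest faller of each role, genes called between genotypes, and paralogs of eIF1, eIF1A, eIF4A, eIF4E, eIF4G and the eIF4E-binding proteins; members named with a change alone complete each role. Eif2a, Eif2b5, Eif2s1, Hars, Mars and Farsa were given in full after their values were seen. Members and lists were chosen with earlier results of these data known. Alternatives were the pseudocount, the filter, the scaling, the samples in the fit, the replicate number as a block, limma-voom on recovered reads (added after seeing the data) and leaving out each library.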

Additional observations from a re-analysis of the deposited data

How the results depend on the processing

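Of 79 members, 7 were called higher at 30 min against 0 min, and 1 with RPKM as deposited, 2 in WT libraries alone, 0 in Ikaros-Zn4-/- libraries alone and 12 with a replicate block (12 also with the 120 min libraries numbered 1, a setting added after seeing the data). Against 5 called lower there were 9 on the deposited scale, 3 with only the libraries of the groups compared, 1 in WT libraries alone and 0 in Ikaros-Zn4-/- libraries alone. At 120 min against 0 min 28 were higher, and 14 on the deposited scale and 17 in WT libraries alone; 10 were lower, and 19 on the deposited scale and 17 with quantile normalization. From 30 to 120 min 27 were higher, and 17 in WT libraries alone; 8 were lower, and 13 on the deposited scale. Between genotypes 7 were higher, and 17 with a replicate block under either numbering and 13 by limma-voom on recovered reads. The deposited scale leaves in the shift of the median of all genes, and fits of 1 genotype hold fewer libraries; for the other settings the cause was not tested.

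Leaving out 1 library gave 1 to 7 higher and 0 to 5 lower at 30 min, 19 to 27 higher and 8 to 11 lower at 120 min against 0 min, 17 to 29 higher and 7 to 11 lower at 120 min against 30 min, and 2 to 10 higher and 0 lower between genotypes. The genotype difference in the response had 0 calls in each setting in which it could be fitted, which for 120 min excludes leaving out a 120 min library. Signs at 120 min against 0 min were followed over all settings for the members called there, the paralogs and Eef1a1. Changes of these that turned sign were uncalled in the main and the other setting. They were Eef1a1 at -0.12 on the deposited scale and -0.0022 with quantile normalization, Eif4g3 at 0.0158 with the replicate block, and Eif1 at 0.0051 without the WT library at 120 min (-0.84 to 0.0051 over left-out libraries). Eif4e3 turned to -0.21 on the deposited scale, -0.16 with the replicate block and -0.47 in Ikaros-Zn4-/- libraries alone, and ran between -0.46 and 0.56 when single libraries were left out. Other uncalled members also turned negative on the deposited scale, among them Eef1b2, Eef1d, Eef1g, Eif3h, Eif3k, Farsa and Tars.

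Libraries with the same replicate number had correlations of their deviations across genes of 0.155 to 0.226 in 5 pairs of groups and of 0.0316 in the other, Ikaros-Zn4-/- at 0 min with WT at 30 min. As not every pair correlated and the labels do not say what a number marks, the numbers were not taken to pair the samples. In all 4 groups 20 of 79 members were higher in the second library, as were 11.6% of all genes. With the replicate block the calls of Eif2s1 and Eif2s2 at 120 min against 0 min were lost, and with the 120 min libraries numbered 1 those of Cars, Eif2b4, Eif3d and Rars. In all 4 groups with 2 libraries the second was shallower. Depth limits the low members most: Eef2k and Eif2b3 rest on fewer than 50 reads in each 120 min library.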

Other observations

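The mitochondrial counterparts of the synthetases and factors, encoded by separate nuclear genes, were counted in the same way. Of 17 mitochondrial tRNA synthetase genes 3 rose and 9 fell at 120 min against 0 min, with a median of -0.50 log2, where 26.5% of all genes tested rose and 32.8% fell. Vars2 read 1.38 scaled RPKM in Ikaros-Zn4-/- and 1.66 in WT cells at 120 min, against 7.94 and 7.33 in Ikaros-Zn4-/- and 10.5 and 9.52 in WT cells at 0 min, and fell by 1.95 log2. Rars2 and Ears2 fell by 1.73 and 1.25 log2. Of 9 mitochondrial translation factor genes 4 fell and 0 rose by limma (0 higher also at an unadjusted p below 0.05), and other tools were not run for this list. Mtif2, an initiation factor, fell most, by 1.92 log2, and was 0.56 log2 higher in Ikaros-Zn4-/- cells.

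Of 10 genes of the mTOR pathway, which phosphorylates the eIF4E-binding proteins, 2 rose and 4 fell at 120 min, near the 26.5% higher and 32.8% lower over all genes tested. Rheb, the activating GTPase of mTOR, rose by 0.97 log2. Tsc2, the GTPase-activating protein that restrains Rheb, fell by 1.18 log2, Rps6kb2, a ribosomal S6 kinase, by 1.21, and Ddit4, a stress-induced inhibitor of the pathway, by 1.38. Mtor itself was not called, at 0.18 log2. Rptor was lower in Ikaros-Zn4-/- cells with a difference of -0.36 log2 over all times. These lists were described on the median-scaled values alone.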
